A study of Rattus norvegicus with 2 samples.

Results

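The genes described are 5 keratins of simple and ductal epithelium (Krt7, Krt8, Krt18, Krt19 and Krt20) and 3 further markers of pancreatic duct cells (Sox9, Cftr and Muc6). They were chosen by name, as every gene spot on the array whose gene name, or older symbol, is one of these 8. These are 8 of 35535 gene or transcript names on the array, with 14 probes of 41012 gene probes, each printed as 1 spot: 1 probe each for Krt7, Krt8, Krt19 and Krt20, 2 each for Krt18, Cftr and Muc6, and 4 for Sox9. The rats were HIP rats, labelled as carrying a human IAPP transgene (islet amyloid polypeptide, a beta cell hormone that can form amyloid), and nondiabetic wild-type rats. Each array took the amplified cDNA of 1 extract per genotype, wild type 1 with HIP 1 on array 1 and wild type 2 with HIP 2 on array 2. Wild-type cDNA carried Cy3 and HIP cDNA Cy5 on both arrays, and with no swap the effects of genotype and of dye cannot be told apart. The labels name no strain, age, sex, tissue, transgene promoter or further treatment, speak of cell samples without naming the cells, and do not say whether each extract is a separate animal. A p-value here covers just the spread among these extracts, and that spread may be technical.

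Keratins form intermediate filaments, and each filament is built from pairs of 1 acidic (type I) and 1 basic (type II) keratin, so that a keratin without a partner is usually degraded. Krt8 (type II) and Krt18 (type I) are the usual pair of simple epithelia and are made by both acinar and duct cells of the pancreas. Krt7 (type II), Krt19 and Krt20 (both type I) are more typical of the duct lining in the rat. Sox9 is a transcription factor of pancreatic progenitors that persists in adult duct cells, Cftr is the apical chloride and bicarbonate channel of duct cells, and Muc6 is a gel-forming mucin of glands in the stomach and the pancreatic ducts.

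The upstream sequences of the keratin genes with a probe at least 2-fold lower in HIP on both arrays (Krt8, Krt20 and 1 of the 2 Krt18 probes) are shown first, since these genes carry the description that follows. They are from RefSeq (assembly GRCr8), where 5 of the 8 genes had an entry. Each is an 80-base stretch of the 250 bases before the annotated start, printed 5′ to 3′ on the gene's own strand. Capitals mark matches to the motifs searched on both strands.
Krt8, chr7:135010426-135010505, minus strand: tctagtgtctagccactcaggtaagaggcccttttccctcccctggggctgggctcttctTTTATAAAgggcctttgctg
Krt18, chr7:135036024-135036103, plus strand: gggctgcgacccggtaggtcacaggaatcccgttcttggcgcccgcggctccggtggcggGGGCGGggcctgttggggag
Krt20, chr10:84890315-84890394, minus strand: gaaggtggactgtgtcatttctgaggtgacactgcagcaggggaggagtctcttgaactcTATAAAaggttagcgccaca

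The Krt8 and Krt18 genes are neighbours on chromosome 7 and are transcribed away from each other, while Krt20 lies on chromosome 10 among the type I keratins. The motifs were the TATA box TATAAA, the GC box GGGCGG and the AP-1 element TGANTCA, which 12.9%, 30.5% and 6.34% of the 33469 RefSeq promoters held in the same 250 bases. Krt8 had 2 overlapping matches to TATAAA, 1 on each strand, the first starting 106 bases before the annotated start, and Krt20 had 1 match, 49 bases before. Krt18 had 1 match to GGGCGG, 84 bases before the start. No other match to these motifs was found in the 3 windows. A match describes the letters of the window and is not evidence of a bound site.

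The signal of the extracts was uneven. The median gene spot stood between 2.94 and 5.26 times its local background, lowest in wild type 2, and 73.6% (wild type 2) to 85.04% (HIP 1) of the 43379 gene spots were called well above background by the scanner software, with 0 saturated. The same call was made for 77.4% to 90.04% of the 1115 probes for olfactory receptors, so it was not taken as a sign that a gene was expressed. Of all probes, 33224 were well above background in the same dye on both arrays and were tested, 12 of the 14 duct probes among them. With limma and Benjamini-Hochberg adjustment over all of them, 0 probes passed an adjusted p of 0.05 in either direction (0%), and 1105 (3.33%) had an unadjusted p under 0.05. The ratios of the arrays were uncorrelated over all probes (r = -0.0038 across probes, which are not independent replicates), with an SD of 1.35 on array 1 and 1.39 on array 2.

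Levels are given as normalized log2 intensities of a probe, and ratios as the log2 of HIP over wild type on 1 array, so that 1 unit is a 2-fold difference. Levels of different probes are on different scales and are not compared. In bulk extracts, fewer cells of a type and less RNA per cell cannot be told apart.

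Krt8 was lower in HIP on both arrays. Its log2 level was 10.76 in wild type 1 and 12.003 in wild type 2, against 8.11 in HIP 1 and 8.31 in HIP 2. Both HIP extracts lay below both wild-type extracts, and the gap between the genotypes was wider than that between extracts of 1 genotype. The log2 ratio was -2.64 on array 1 and -3.69 on array 2, a mean of -3.17 ± 0.74 (SD, n = 2 arrays), which placed Krt8 at the 0.504th percentile of all tested probes. It did not pass the test (limma, Benjamini-Hochberg adjusted p = 0.931). The probe was bright in every extract, at 52.1 and 75.0 times background in wild type 1 and 2 and 8.79 and 10.3 times in HIP 1 and 2. In the scanner software's own processed intensities, the same spots stood at 7453 and 18293 in the wild-type extracts and 1020.5 and 1046 in the HIP extracts.

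The array also carries 3 probes for sequences that its annotation describes as similar to keratin 8, each placed on another chromosome. RGD1561232, placed on chromosome 11, was higher in HIP, with log2 levels of 10.30 and 10.62 in wild type 1 and 2 and 11.19 and 11.53 in HIP 1 and 2. Both HIP extracts lay above both wild-type extracts, and the log2 ratios were 0.89 and 0.91 (mean 0.90 ± 0.01, SD, n = 2 arrays, limma adjusted p = 0.931). The copy placed on chromosome X was lower in HIP, at -1.58 and -0.40, and the copy on chromosome 2 stood at 0.07 and -0.07. None passed the test. Krt8 and its copies thus did not share a direction, and how far each probe also detects RNA of the others was not tested.

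Krt18, the partner of Krt8, gave different answers with its 2 probes. Probe 2 had log2 levels of 11.32 and 9.62 in wild type 1 and 2 and of 9.14 and 8.18 in HIP 1 and 2. Both HIP extracts lay below both wild-type extracts, but HIP 1 was closer to wild type 2 than the wild-type extracts were to each other. The log2 ratio of probe 2 was -2.18 on array 1 and -1.45 on array 2 (mean -1.81 ± 0.52, SD, n = 2 arrays, limma adjusted p = 0.931). Its ratio on array 2 moved with the scaling between dyes. It was -0.67 when each array was only centred on its median and 0.28 with no normalization. The median ratio of all tested probes on array 2 was then 0.24 and 1.20. Probe 1 had log2 levels of 13.28 and 9.40 in the wild-type extracts and of 10.42 and 10.70 in the HIP extracts. Its HIP values lay between its wild-type values, so the groups overlapped. The log2 ratio of probe 1 was -2.86 on array 1 and 1.30 on array 2 (mean -0.78 ± 2.95, SD, n = 2 arrays, limma adjusted p = 0.98).

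The probes therefore had the same sign on array 1 and opposite signs on array 2. On array 2 the error that the scanner software assigned to the log2 ratio was 0.24 for probe 1 and 0.26 for probe 2, much smaller than the distance between its ratios for them, 1.36 and -1.82. In wild type 2 both probes were well above background, at 11.6 and 12.5 times it. The array's annotation places probe 1 on chromosome 10 and probe 2 on chromosome 2, whereas RefSeq places the Krt18 gene on chromosome 7. The sequences of the probes were not used here, and whether either detects a copy elsewhere was not tested.

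**Figure D1:**
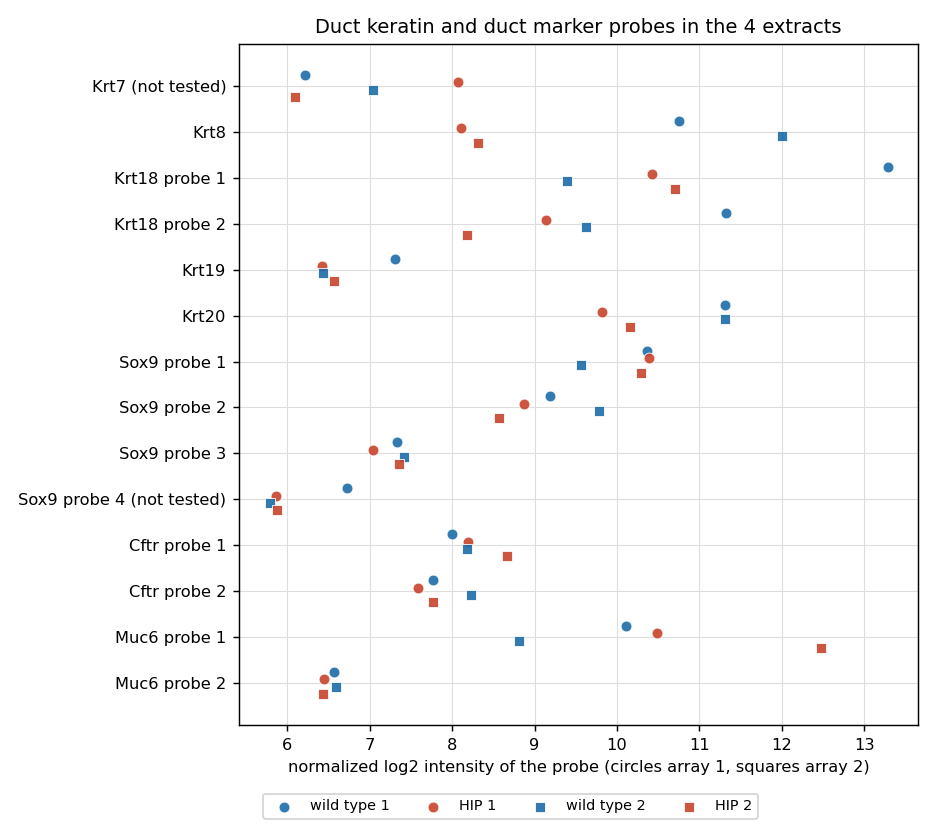
Normalized log2 intensity (horizontal axis) of the 14 probes in the 4 extracts, with circles for array 1, squares for array 2, blue for wild type and red for HIP. Krt8 and Krt20 have both red symbols left of both blue ones, while the red symbols of Krt18 probe 1 lie between its blue ones at 9.40 and 13.28; levels compare between extracts within a row, not between rows.

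Krt20 was lower in HIP on both arrays by amounts close to each other. Its log2 level was 11.31 in wild type 1 and 11.31 in wild type 2, against 9.81 in HIP 1 and 10.16 in HIP 2. The wild-type extracts were nearly equal and the HIP extracts both lay below them. The log2 ratio was -1.50 on array 1 and -1.15 on array 2 (mean -1.32 ± 0.25, SD, n = 2 arrays), and it did not pass the test (limma, Benjamini-Hochberg adjusted p = 0.931). All 4 spots were bright, from 31.7 to 63.4 times background. The mean of Krt20 moved with the scaling between dyes: it was -0.57 when each array was only centred on its median and 0.22 with no normalization, where the median ratio of all tested probes was 0.79 and 1.20 on arrays 1 and 2. Relative to the median over all tested probes, the mean of Krt20 was -0.85 in both cases.

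Krt19, the keratin most used to mark ducts, was dim. Its log2 level was 7.31 in wild type 1 and 6.43 in wild type 2, against 6.43 in HIP 1 and 6.56 in HIP 2. Wild type 1 stood apart and the other extracts were close together, so the groups overlapped. The log2 ratio was -0.88 on array 1 and 0.13 on array 2 (mean -0.38 ± 0.71, SD, n = 2 arrays, limma adjusted p = 0.96). The spot reached 4.43 times background in wild type 1 and 1.57 to 2.16 times in the others, and in wild type 2 it was not well above background.

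Krt7, a type II partner for the duct keratins, was well above background in HIP 1 and wild type 2 alone and was therefore not tested. Its log2 level was 6.21 and 7.04 in wild type 1 and 2 and 8.07 and 6.09 in HIP 1 and 2. The highest and the lowest value were both from HIP extracts. The log2 ratio was 1.86 on array 1 and -0.95 on array 2, a mean of 0.46 ± 1.99 (SD, n = 2 arrays). The scanner's processed ratios had the same signs and were larger, 6.27 and -3.77, with a processed intensity of 11.8 in wild type 1 and 26.6 in HIP 2.

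Of the 6 keratin probes, 3 were at least 2-fold lower in HIP on both arrays (Krt8, Krt18 probe 2 and Krt20) and none was at least 2-fold higher. The background was 2.47% of all tested probes for at least 2-fold lower on both arrays and 2.6% for at least 2-fold higher. An unadjusted p under 0.05 was reached by 2 of them, Krt8 and Krt18 probe 2, beside the 3.33% given above. The other 3 keratin probes (Krt18 probe 1, Krt19 and Krt7, which was not tested) had opposite signs on the arrays. Krt18 probe 1 was past 2-fold in opposite directions, as were 5.39% of all tested probes. When the arrays were centred on their medians in place of loess, 1 of the 14 duct probes was at least 2-fold lower on both arrays (Krt8) and 1 at least 2-fold higher (Muc6 probe 1), where all tested probes had 1.39% lower and 7.52% higher.

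**Figure D2:**
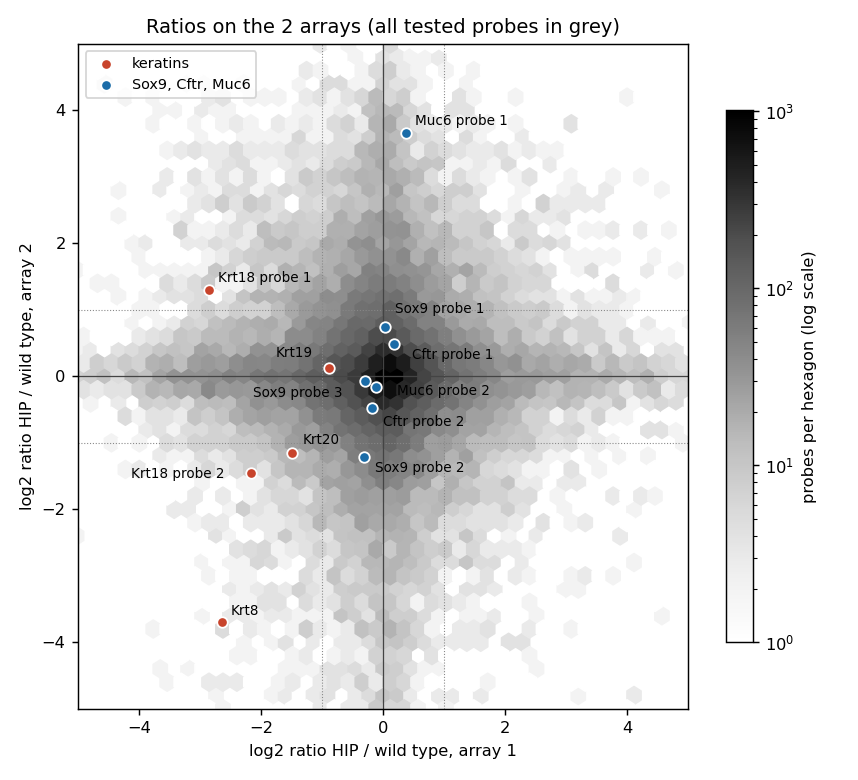
Log2 ratio of HIP over wild type on array 1 (horizontal) against array 2 (vertical) for the 12 duct probes tested, red for keratins and blue for Sox9, Cftr and Muc6, over all 33224 tested probes as grey hexagons on a log scale; dotted lines mark 2-fold, and probes beyond 5 log2 units are not shown. Krt8 lies far into the lower left at -2.64 and -3.69, Krt18 probe 2 and Krt20 lie beyond the lower left 2-fold lines, and the blue points other than Muc6 probe 1 lie within 1.22 of 0 on both axes.

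Sox9 showed no common direction over its 4 probes. Probe 1 had log2 levels of 10.36 and 9.56 in wild type 1 and 2 and of 10.38 and 10.30 in HIP 1 and 2, ratios of 0.02 and 0.74. Wild type 2 was the low value and the other 3 extracts were nearly equal. Probe 2 had log2 levels of 9.19 and 9.79 in the wild-type extracts and of 8.88 and 8.57 in the HIP extracts, ratios of -0.32 and -1.22, with both HIP extracts below both wild-type extracts. Probe 3 stood at 7.33 and 7.42 in wild type and 7.03 and 7.35 in HIP, ratios of -0.30 and -0.06, and its extracts lay close together with HIP 2 between the wild-type values. Probe 4 was well above background in wild type 1 alone and was not tested.

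The mean log2 ratios of Sox9 probes 1 to 3 were 0.38 ± 0.50, -0.77 ± 0.64 and -0.18 ± 0.17 (SD, n = 2 arrays), with limma adjusted p-values of 0.945, 0.931 and 0.987. None reached a 2-fold difference on both arrays, and on array 2 probes 1 and 2, both bright, were on opposite sides of 0. The sign of probe 3 turned with the scaling: its mean was 0.0018 when the arrays were centred on their medians, where all tested probes stood at 0.28. Relative to the median of all tested probes it was -0.28 there and -0.21 under loess.

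Cftr was close to equal in the genotypes with both probes. Probe 1 had log2 levels of 8.0032 and 8.18 in wild type 1 and 2 and of 8.19 and 8.66 in HIP 1 and 2, and HIP 1 was only just above wild type 2. Probe 2, designed on a partial sequence of the gene, had levels of 7.77 and 8.23 in wild type and of 7.58 and 7.76 in HIP, with HIP 2 only just below wild type 1. The ratios were 0.18 and 0.48 for probe 1 and -0.19 and -0.47 for probe 2, so the probes leaned in opposite directions by like amounts. Their means were 0.33 ± 0.21 and -0.33 ± 0.20 (SD, n = 2 arrays), with limma adjusted p-values of 0.948 and 0.949. That of probe 2 became 0.05 when the arrays were centred on their medians. Relative to the median of all tested probes it was -0.22 there and -0.35 under loess.

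Muc6 probe 1 differed most on array 2. Its log2 level was 10.10 and 8.81 in wild type 1 and 2, against 10.48 and 12.48 in HIP 1 and 2. Both HIP extracts lay above both wild-type extracts, but on array 1 by little: the ratio was 0.38 there and 3.67 on array 2 (mean 2.02 ± 2.33, SD, n = 2 arrays, limma adjusted p = 0.931). Probe 2 was dim, at 1.77 to 2.27 times background, with levels of 6.57 and 6.59 in wild type and 6.45 and 6.43 in HIP. Its ratios were -0.13 and -0.16 (limma adjusted p = 0.992), so it did not show the difference of probe 1 on array 2. On the same array the trypsinogen gene Prss1, an acinar enzyme, was also far higher in HIP 2, with a log2 ratio of 4.68. Its spot stood at 3.46 times background in wild type 2 and 193 times in HIP 2. On array 1 its ratio was 0.13, with a dim spot, at 2.01 times background in wild type 1 and 2.20 in HIP 1. Amy2, the amylase gene, stood at 0.0042 on array 2, and the median of the acinar list there was 0.06. The part of acinar RNA in the Muc6 value was not tested.

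**Figure D3:**
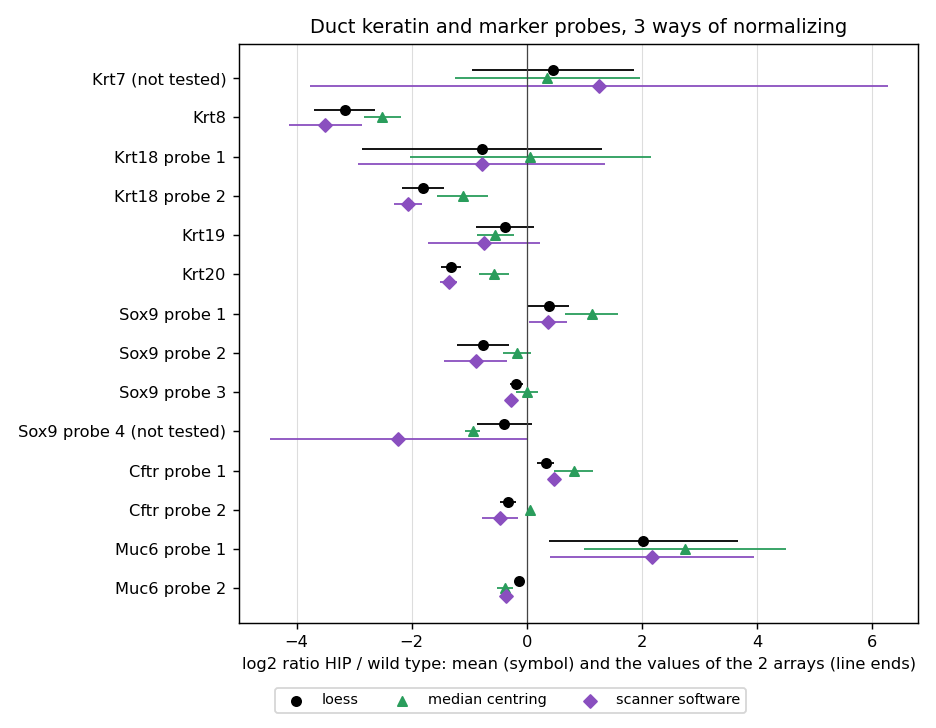
Mean log2 ratio of HIP over wild type (symbol) and the values on the 2 arrays (line ends) for the 14 probes under loess, under centring each array on its median and in the scanner software's processed ratios. Krt8 lies left of 0 with all 3, at means of -3.17, -2.52 and -3.50, whereas Krt18 probe 1 spans 0 with all 3. Sox9 probe 3 and Cftr probe 2 sit at 0.0018 and 0.05 under median centring, where the median of all tested probes was 0.28.

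Over all 14 probes, 7 were lower in HIP on both arrays, 3 were higher on both and 4 had opposite signs, beside 23.1% of all tested probes lower on both and 27.3% higher on both. The sign was thus shared between the arrays in 10 of 14, beside 50.3% of all tested probes. The 14 include Krt7 and Sox9 probe 4, which were not tested and had opposite signs, whereas the shares are of tested probes alone. The median of their mean log2 ratios was -0.35, beside 0.03 for all tested probes. Of the 12 tested probes, 6 had both HIP levels below both wild-type levels (Krt8, Krt18 probe 2, Krt20, Sox9 probe 2, Cftr probe 2 and Muc6 probe 2), beside 15.2% of all tested probes, and 2 had both above (Cftr probe 1 and Muc6 probe 1), beside 15.9%. Among the 6 below, the mean log2 ratio ranged from -3.17 for Krt8 to -0.15 for Muc6 probe 2.

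Disagreement between probes of a gene was common on these arrays. Over 2704 genes with several tested probes (3915 pairs), the pairs had the same sign in 52.8% on array 1 and 50.9% on array 2, and r between them was 0.13 and 0.07. Spots of the same probe were much closer: 263 probes were printed more than once, and the SD of their log2 ratios between spots was 0.08 on array 1 and 0.09 on array 2. Krt8, Krt19, Krt20 and Krt7 each rest on a single probe, so no such check exists for them.

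The other keratins did not follow Krt8 as a group. Of 26 other keratin genes, taken by their brightest probe, 5 were higher in HIP on both arrays, 8 lower on both and 13 opposite, none passed the test, and their median log2 ratio was -0.17 beside 0.02 for all genes. That median was 0.13 when arrays were centred on their medians, where all probes stood at 0.28, and -0.038 and -0.023 on arrays 1 and 2 alone. Krt1, a type II keratin of the epidermis, was the gene whose ratios lay closest to those of Krt8 among 61 other keratin and duct genes (distance 0.81 over the pair of log2 ratios). Its log2 levels were 12.77 and 13.74 in wild type 1 and 2 and 10.47 and 10.78 in HIP 1 and 2, with both HIP extracts below both wild-type extracts. Its ratios were -2.31 and -2.96 (mean -2.63 ± 0.46, SD, n = 2 arrays, limma adjusted p = 0.931), and it was the only one of the 26 at least 2-fold lower on both arrays. The next closest, the hair keratin Krt84 and the tight junction gene Cldn3, were already at distances of 2.69 and 2.90.

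Further keratins had their difference mostly on 1 array. Krt36, a hair keratin, stood at -2.99 and -0.21. Krt14 and Krt4, keratins of basal cells and of the lining of the mouth and oesophagus, were higher in HIP at 3.54 and 0.65, and at 2.76 and 0.60. A second Krt14 probe gave 1.74 and -0.10. By place in the genome, the 13 keratin genes on chromosome 7, where Krt7, Krt8 and Krt18 lie, had a median of -0.15, with 4 higher, 4 lower and 5 opposite. The 17 on chromosome 10, with Krt19 and Krt20, had a median of -0.37, with 1 higher, 6 lower and 10 opposite. Without the duct keratins these medians were 0.08 and -0.21.

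Genes of duct secretion other than Cftr and Muc6 were spread around 0. Of 16 measured, 3 were higher in HIP on both arrays, 4 lower and 9 opposite. None passed the test or was at least 2-fold apart in the same direction on both arrays, and the median was -0.09. It was 0.27 with arrays centred on their medians, where all tested probes stood at 0.28, and -0.13 and 0.11 on arrays 1 and 2 alone. Kcnn4, a potassium channel that drives fluid secretion, stood at 1.36 and 0.62, and the water channel Aqp5 at 0.79 and 0.77. Muc1, a membrane mucin of the duct surface, stood at -3.26 and -0.45, and the trefoil peptide Tff2 at -1.58 and -0.38. Car2, the carbonic anhydrase that supplies bicarbonate, had log2 levels of 10.47 and 7.66 in wild type 1 and 2 and of 7.56 and 9.13 in HIP 1 and 2, so its direction turned between the arrays (-2.91 and 1.47), as it did for Krt18 probe 1.

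Genes of duct identity gave the same picture. Of 19 measured, 4 were higher in HIP on both arrays, 7 lower and 8 opposite, none passed the test, and the median was -0.11. Epcam, an adhesion protein of epithelial cells, had log2 levels of 8.01 and 8.04 in wild type 1 and 2 and of 7.33 and 7.43 in HIP 1 and 2. Its extracts were close within each genotype and did not overlap between them, and its log2 ratios were -0.68 and -0.61 (mean -0.65 ± 0.05, SD, n = 2 arrays, limma adjusted p = 0.931). Cldn3 stood at -0.98 and -1.32. The transcription factors Onecut1, at -3.39 and -0.04, and Elf3, at 0.14 and 3.09, and the protease Mmp7, at 1.70 and 0.04, were past 2-fold on 1 array alone. Prom1, a surface marker of duct cells, stood at 1.73 and -1.07 with its brightest probe and at 0.40 and 0.06 with another.

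Spp1, a secreted protein that marks ducts, was not well above background in any extract, with log2 levels between 5.92 and 6.02, and was not tested. It was 1 of 4 such genes among the 42 other duct genes on the array. Of the keratins more typical of ducts, Krt7 was not well above background in 2 extracts and Krt19 in 1, as given above. Krt20 was bright in every extract, from 31.7 to 63.4 times background. The genes are called duct markers here for what they mark in the pancreas. The labels do not say whether the extracts held duct cells.

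**Figure D4:**
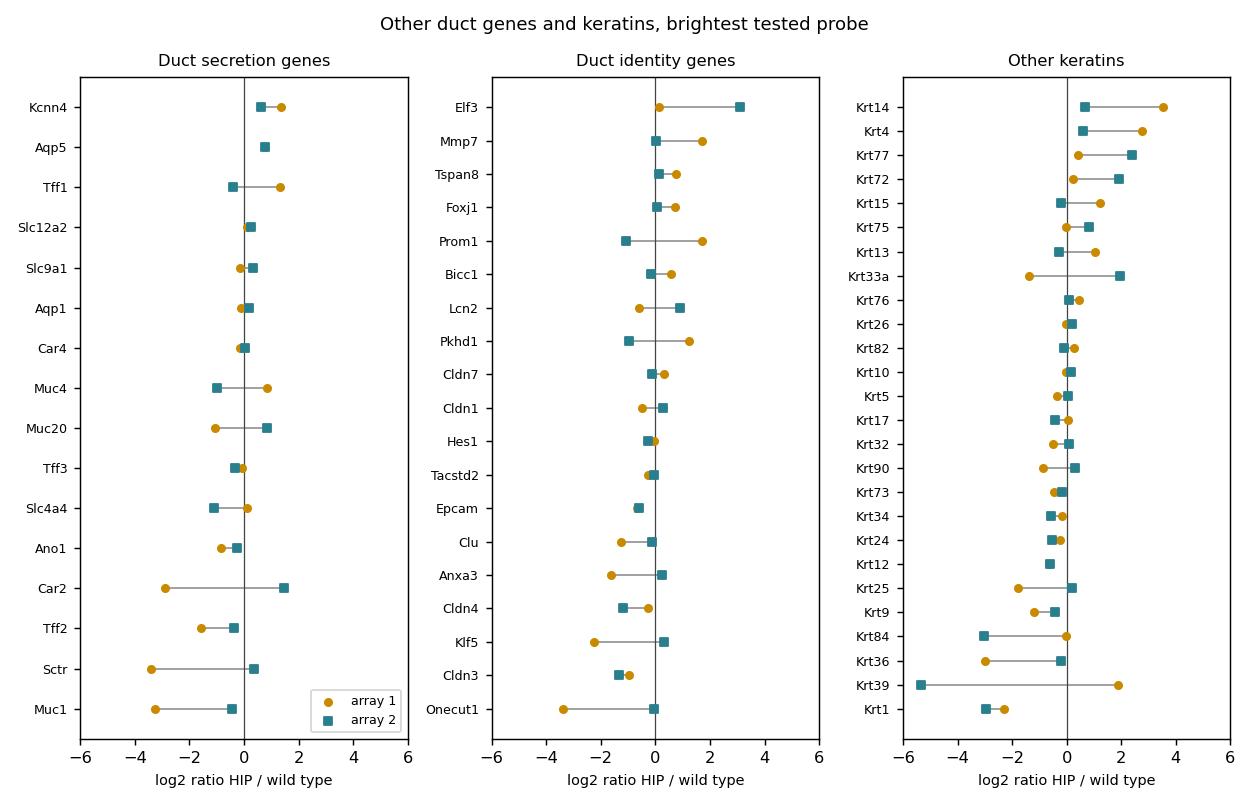
Log2 ratio of HIP over wild type on array 1 (circles) and array 2 (squares) for the brightest tested probe of the other duct secretion genes, duct identity genes and keratins, ordered by their mean. Krt1, at -2.31 and -2.96, is the only gene of the 3 panels with both symbols at least 1 log2 unit from 0 on the same side, and long lines such as those of Car2 and Prom1 join symbols on opposite sides.

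Markers of other cells that such extracts could hold are given beside the keratins. Summed over the brightest probes, the scanner's processed intensity of 19 islet genes on the array was 169112 and 258790 in wild type 1 and 2 and 114243 and 126803 in HIP 1 and 2, lower in both HIP extracts, as for Krt8. Of 18 islet genes tested, 5 were higher in HIP on both arrays, 5 lower and 8 opposite, and Ins1 stood at -1.18 and -1.02 while Gcg, the glucagon gene, stood at 2.84 and -1.35. The 13 stromal genes summed to 38587 and 42181 in wild type and to 28783 and 25259 in HIP, with 1 of 11 tested higher, 6 lower and 4 opposite. Their part in the keratin values was not tested.

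The acinar genes, whose cells also make Krt8 and Krt18, summed to 188402 and 206021 in wild type 1 and 2 and to 199429 and 256887 in HIP 1 and 2. Prss1 alone, which is part of these sums, went from 508 in wild type 2 to 23258.5 in HIP 2. Of 23 acinar genes tested, 11 were higher in HIP on both arrays, 5 lower and 7 opposite. Of all tested probes, 27.3% were higher on both arrays and 23.1% lower. The part of acinar RNA in the Krt8 and Krt18 values was not tested. The 13 macrophage and leukocyte genes summed to 56557 and 84226 in wild type and to 55508 and 68802 in HIP (3 higher, 4 lower, 6 opposite), and the 11 endothelial genes to 18774 and 11966 in wild type and to 56377 and 12213 in HIP (2 higher, 2 lower, 7 opposite). No gene of these lists passed the test. Of the defining markers, Ins1, Gcg, Amy2, Prss1 and Col1a1 were well above background in every extract, Pecam1 was not well above background in wild type 2, and the 2 tested probes of the leukocyte marker Ptprc stood at 0.47 and -3.79 and at 1.75 and 0.14. In each of the islet and stromal lists, 1 gene was not well above background in any extract.

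In the authors' deposited table, 10 entries were for these genes, and 7 equalled the log ratio of a scanner spot within 2e-05. The other 3 were Krt18 probe 2, Sox9 probe 3 and Muc6 probe 2. How the authors combined probes is not stated, but each of these entries matched a mean over several probes of its gene. That mean weights the scanner's ratios by the inverse square of the software's error. It covers both probes of Krt18 and of Muc6, and probes 1, 3 and 4 of Sox9. These entries are thus not values of the named spot alone. For Krt18 probe 2 the authors' deposited table gave log2 ratios of -2.58 and -0.07 on arrays 1 and 2. The scanner's ratios were -2.93 and 1.36 for probe 1 and -2.32 and -1.82 for probe 2. For Muc6 probe 2 the authors' deposited table gave 0.12 and 1.55. The scanner's ratios were 0.40 and 3.94 for probe 1 and -0.31 and -0.40 for probe 2. For Sox9 probe 3 the authors' deposited table gave -0.42 and 0.26. The scanner's ratios were 0.03 and 0.70 for probe 1, -0.33 and -0.22 for probe 3, and -4.47 and 0 for probe 4.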

How the data were processed

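Per the file headers, the authors scanned both 2-colour arrays and read the spots with Feature Extraction 9.5.1.1. The deposited files give each spot's mean intensity and median local background as scanned, and a processed signal intensity that was background-subtracted and dye-normalized, per the file headers. It also gives a log10 ratio (Cy5 over Cy3) with its error and p-value from the software's error model, per the file headers, and other marks that the authors' software set for control, outlier, saturated and background spots. The deposited table of the series holds log10 ratios with column medians of 0.0114 and 0. Per the labels' protocols, mRNA was isolated with magnetic beads and its cDNA was amplified by PCR, which can change proportions between transcripts. The sources used here do not give the genome build of the array's annotation.

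From the scanned intensities, limma 3.58.1 (R 4.3.3) was used for normexp (offset 50), loess within arrays with controls at weight 0, outlier spots left out, and quantile scaling of average intensity for the levels. Probes well above background in the same dye on both arrays were kept (81%). Log2 ratios were tested against 0, two-sided, per probe with lmFit and eBayes (1 residual degree of freedom, prior degrees of freedom 1.68, prior SD 0.674), with Benjamini-Hochberg adjustment over all tested probes. The code was tested on simulated data. An exact sign-flip test of 2 ratios cannot give a p below 0.5, so none was used. No other batch could be tested with 2 arrays, whose number limits the precision. RefSeq names (GRCr8) were matched for 19966 of 41012 probes.

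Named genes were all 8 duct genes with every probe, the 2 highest and 2 lowest with 1 sign on both arrays in each other duct or keratin list, 5 duct genes named in any case, and the 3 nearest to Krt8. Some genes that this rule names are not reported here. The genes and lists were chosen with earlier results of these data known. The alternatives were other scalings, filters, priors and probe summaries, the deposited ratios, and each array alone.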

Additional observations from a re-analysis of the deposited data

How the results depend on the processing

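With limma, 0 probes passed under any of the 12 alternatives that could be tested, with 958 to 5623 at an unadjusted p under 0.05 and the smallest adjusted p between 0.285 and 0.963. With 1 array left there is no residual degree of freedom and so no test. Of the 12 duct probes tested, 3 were at least 2-fold apart the same way on both arrays, all lower in HIP. This count was 2 when arrays were centred on their medians (Krt8 lower, Muc6 probe 1 higher) and 4 without normalization (3 higher, 1 lower). With 1 array alone it was 4 on array 1 (all lower, with the untested Krt7 at 1.86 not counted) and 6 on array 2 (2 higher, 4 lower). The share of all tested probes was not counted without normalization or on 1 array alone, so those counts have no background beside them. Without normalization the median ratio of all tested probes was 0.79 and 1.20 on arrays 1 and 2. Under loess the SD of their ratios was 1.35 and 1.39. The median of the duct lists, -0.11, became 0.040 with median centring and 0.83 without normalization, where all tested probes had medians of 0.28 and 1.07. With 1 array alone the median of the duct lists ranged from -0.14 to -0.034. That of the duct identity genes, -0.11, was 0.085 with probes well above background in both dyes. Mean log2 ratios turned sign as follows. With median centring, Krt18 probe 1 was 0.063, Sox9 probe 3 was 0.0018 and Cftr probe 2 was 0.054. Without normalization, Krt18 probe 1 was 0.85, Krt19 0.24, Krt20 0.22, Sox9 probe 2 0.62, Sox9 probe 3 0.79, Cftr probe 2 0.84 and Muc6 probe 2 0.41. Relative to the median of all tested probes in the same setting, each of these means stayed negative. They ranged from -0.85 for Krt20 to -0.22 for Krt18 probe 1 and Cftr probe 2. With 1 array alone, Krt18 probe 1 ranged from -2.86 to 1.30, Krt19 from -0.88 to 0.13, and the untested Krt7 from -0.95 to 1.86 and Sox9 probe 4 from -0.86 to 0.085. In the authors' deposited table, Muc6 probe 2 was 0.83, an entry that joins both Muc6 probes. The cause of the other turns was not tested. Sizes moved too where signs held, as for Sox9 probe 4, at -2.23 in the scanner's ratios, and Muc6 probe 1, at 0.38 on array 1 alone. Krt8 stayed lower under every alternative run, from -1.73 without normalization to -3.69 on array 2 alone. The filter with either dye on each array was added after the data were seen. Dim probes (Krt7, Krt19, Sox9 probe 4, Muc6 probe 2) are limited by signal over background.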
